A study of Mus musculus with 6 samples.

Results

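The troponin and tropomyosin genes of the skeletal muscle thin filament were followed across 6 arrays of soleus from male mice: the slow-fibre troponins Tnnc1, Tnni1 and Tnnt1, the fast-fibre troponins Tnnc2, Tnni2 and Tnnt3, and the tropomyosins Tpm1, Tpm2 and Tpm3. Members were all probe sets to which the array annotation gives exactly 1 gene symbol and that symbol is one of the 9. This gave 13 probe sets of 12488 on the array, or of 10833 with exactly 1 symbol, and all 9 genes had at least 1. The groups were 3 samples of mice lacking estrogen receptor beta (Esr2 knockout, called BERKO in the labels) and 3 of wild-type C57BL/6 mice. The strain background and the allele of the knockout, the age of the mice, and whether a sample was 1 mouse or a pool are not given in the sources used here, so the p-values rest on the spread among these arrays, which may be technical in part. Values are signal intensities on a linear scale as the authors deposited them, with 1 value per probe set and array.

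A thin filament is a helix of actin with tropomyosin along its grooves and a troponin complex at regular intervals. Troponin C binds calcium, troponin I holds the filament off until calcium arrives, and troponin T ties the complex to tropomyosin. Tropomyosin then shifts on actin and exposes the sites where myosin heads attach. Slow and fast fibres use different genes for each troponin subunit. Soleus, a postural muscle, is known in the mouse for its mixture of slow type I and fast oxidative type IIa fibres.

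The 13 probe sets did not all give a usable signal. Tests were made where at least 3 of the 6 arrays read above 39.4, the median over all probe sets and arrays, and 10 of the 13 did so on all 6 arrays, so that each of the 9 genes kept 1 or more. The other 3 were second probe sets of Tnnc2, Tpm2 and Tpm3, and they stayed near or below the floor of 7.8, the 20th percentile of all values. The second Tnnc2 probe set read 4.8, 2.3 and 3.5 in the knockout and 2.8, 6.4 and 2.8 in wild type, while the other Tnnc2 probe set read 3590.6 or more on the same arrays. That of Tpm2 read 4.2, 3.3 and 3.3 in the knockout and 6.2, 14.1 and 6.1 in wild type, and that of Tpm3 read 8.9, 12.9 and 5.7 in the knockout and 3.8, 9.6 and 7.5 in wild type. Readings at this level are not a measure of transcript. The suffixes s and f mark probe sets that can match more than 1 transcript. They stand on the brighter of 2 usable Tnnt1 probe sets (s) and on the usable Tnnc2 probe set (f), so the identity of both signals is uncertain.

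The slow troponins followed one another closely from array to array. To show what lies before their starts, the promoter windows of the 3 slow troponin genes are given with that of the fast gene Tnnc2, 5′ to 3′ on the strand of the gene, from 250 bases before to 50 after the start in RefSeq on GRCm38.p6. The windows are chr14:31208062-31208361 (plus strand) for Tnnc1, chr1:135799171-135799470 (plus strand) for Tnni1, chr7:4515926-4516225 (minus strand) for Tnnt1 and chr2:164779685-164779984 (minus strand) for Tnnc2. Capitals mark E-boxes, CANNTG, the letters that myogenic helix-loop-helix factors such as MyoD bind.
Tnnc1: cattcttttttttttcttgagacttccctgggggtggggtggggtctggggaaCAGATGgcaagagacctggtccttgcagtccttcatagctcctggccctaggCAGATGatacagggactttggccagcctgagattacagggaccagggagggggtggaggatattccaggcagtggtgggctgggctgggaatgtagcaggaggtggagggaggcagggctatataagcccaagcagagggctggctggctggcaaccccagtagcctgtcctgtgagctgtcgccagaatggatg
Tnni1: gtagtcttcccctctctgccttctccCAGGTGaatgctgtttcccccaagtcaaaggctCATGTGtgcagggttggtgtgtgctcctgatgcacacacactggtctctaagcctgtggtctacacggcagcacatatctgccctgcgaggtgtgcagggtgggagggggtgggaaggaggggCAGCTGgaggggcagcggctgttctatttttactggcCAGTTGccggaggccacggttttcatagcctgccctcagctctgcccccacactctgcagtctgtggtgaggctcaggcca
Tnnt1: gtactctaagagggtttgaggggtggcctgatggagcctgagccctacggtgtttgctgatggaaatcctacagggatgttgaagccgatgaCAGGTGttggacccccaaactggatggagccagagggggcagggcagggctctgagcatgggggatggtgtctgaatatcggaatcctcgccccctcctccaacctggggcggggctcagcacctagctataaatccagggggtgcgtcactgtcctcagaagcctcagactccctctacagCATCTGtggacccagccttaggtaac
Tnnc2: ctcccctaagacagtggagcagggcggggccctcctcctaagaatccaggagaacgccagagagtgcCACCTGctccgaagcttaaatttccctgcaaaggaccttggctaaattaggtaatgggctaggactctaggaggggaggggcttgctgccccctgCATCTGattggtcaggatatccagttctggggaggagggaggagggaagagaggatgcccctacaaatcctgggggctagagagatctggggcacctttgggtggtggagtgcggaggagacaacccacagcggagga
These windows held 2 E-boxes for Tnnc1, 4 for Tnni1, 2 for Tnnt1 and 2 for Tnnc2. RefSeq windows matched 7 of the 9 members, all but Tnni2 and Tnnt3, with a second window each for Tnni1 and Tpm3. All 9 windows held an E-box, as did 72.3% of the 32851 windows of all genes, so its presence does not set these genes apart. The MCAT letters CATTCC were in 2 of the 9 windows, those of Tnnc1 and Tpm1, against 14.7% of all windows. TATAAA was in 1 of the 9, that of Tnnt1, against 13.6%. The half-site of the estrogen response element, GGTCA, was in 5 of the 9 windows, against 40.5% of all windows. These windows belonged to 4 of the 7 genes (Tnnc2, Tnni1, Tpm2 and Tpm3), and the Tnni1 match lay in its second window, not in the one shown. The full element, 2 such half-sites facing each other 3 bases apart, was in 0 of the 9, against 0.07% of all windows. All motifs were searched on both strands, and the half-site is part of the full element. A match is only a run of letters in the window.

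The 3 slow troponins read slightly higher on average in the knockout with the deposited scaling, though not after quantile normalization, and with groups that overlapped for each of them. Tnnc1, the calcium sensor of slow fibres, read 6747.4, 7684.8 and 6654.6 in the knockout and 5415.6, 7353.4 and 6104.2 in wild type. The second wild-type array lay above 2 of the 3 knockout arrays. The means were 7029 ± 570 in the knockout and 6291 ± 982 in wild type (SD, n = 3 each), a fold of 1.12 with a 95% interval of 0.94 to 1.34 (limma, adjusted p = 0.958). Tnni1, the inhibitory subunit of slow fibres, read 7544.5, 8742.5 and 6723.2 in the knockout and 5789.1, 7793.1 and 6721.3 in wild type. The lowest knockout array and the median wild-type array were almost level. Its means were 7670 ± 1020 in the knockout and 6768 ± 1000 in wild type, a fold of 1.14 with an interval of 0.933 to 1.38 (limma, adjusted p = 0.958).

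Tnnt1, which anchors the slow complex to tropomyosin, had 2 usable probe sets that went opposite ways. The brighter read 11324.9, 13353.4 and 10741.9 in the knockout and 8779.2, 11894.4 and 10855.7 in wild type, and it was the highest value of the whole array on 4 of the 6 arrays. Whether such readings were held down by saturation was not tested. The groups overlapped, and the fold was 1.13 with an interval of 0.933 to 1.36 (limma, adjusted p = 0.958). The dimmer read 1317.1, 1841.7 and 1384.1 in the knockout and 1529.4, 1836.0 and 1884.2 in wild type. Here 2 knockout arrays lay below all wild-type arrays and the second knockout array lay among them, a fold of 0.859 with an interval of 0.688 to 1.07 (limma, adjusted p = 0.958). On the log2 scale the brighter minus the dimmer probe set, relative to its wild-type mean, was 0.52, 0.28 and 0.38 in the knockout and -0.06, 0.11 and -0.05 in wild type. The 2 probe sets of this gene thus moved apart by 0.39 between the groups without overlap, and no test was made of that difference. The direction for Tnnt1 depends on the probe set used.

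With the deposited scaling the fast troponins stood further apart between the groups than the slow troponins. The log2 difference of Tnnt3 was 0.01 after quantile normalization and 0.07 after cyclic loess, against 0.24 as deposited, and that of Tnnc2 was 0.16 and 0.12, against 0.26. Tnnt3, the fast tropomyosin-binding subunit, read 7007.6, 7425.6 and 7028.9 in the knockout and 6321.0, 5756.5 and 6053.2 in wild type. Every knockout array lay above every wild-type array, by at least 686.6 units. The means were 7154 ± 235 in the knockout and 6044 ± 282 in wild type (SD, n = 3 each), a log2 difference of 0.24 ± 0.07 (SE) and a fold of 1.18 with a 95% interval of 1.06 to 1.32. Its unadjusted p was 0.00763, and in limma with adjustment over all 6369 probe sets tested it did not pass (adjusted p = 0.923).

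Tnni2, the fast inhibitory subunit, read 484.0, 399.6 and 370.6 in the knockout and 339.4, 342.3 and 339.7 in wild type. The 3 wild-type arrays were nearly identical, the knockout arrays spread more widely, and the groups did not overlap. The means were 418.1 ± 58.9 in the knockout and 340.5 ± 1.59 in wild type, a fold of 1.22 with an interval of 1.0 to 1.49 (limma, adjusted p = 0.923). Tnnc2, the fast calcium sensor, read 4659.1, 4285.4 and 4882.5 in the knockout and 3590.6, 4305.7 and 3649.2 in wild type. The second array of each group met in the middle, and this pair alone made the groups overlap. Its fold was 1.20 with an interval of 1.03 to 1.39 (limma, adjusted p = 0.923).

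**Figure D1:**
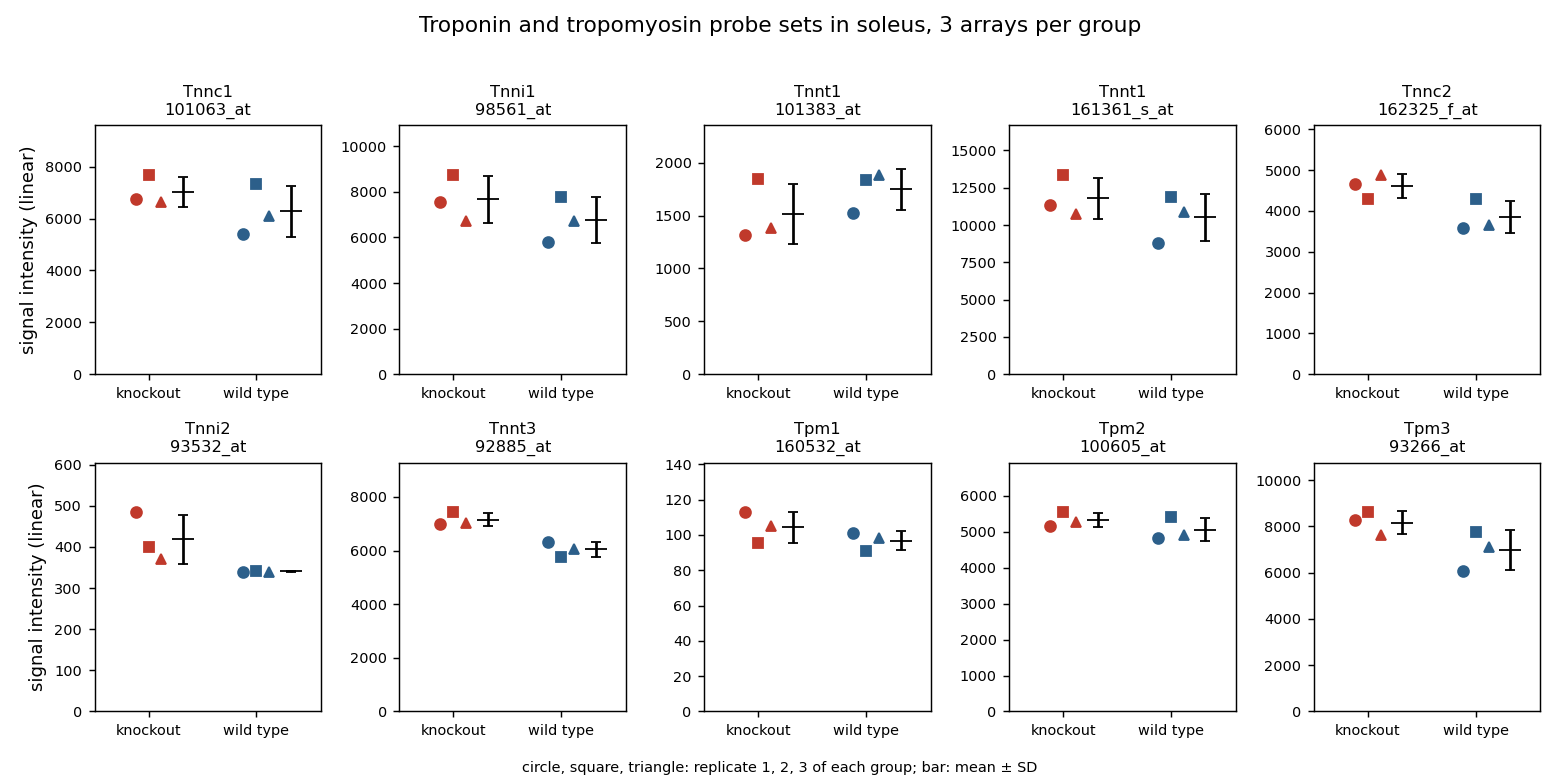
Signal intensity (linear axis from 0) of the 10 tested probe sets, 1 panel each, with the 3 knockout arrays left of the 3 wild-type arrays. Circles, squares and triangles are replicates 1, 2 and 3, and bars are mean ± SD. Only the panels of Tnni2 and Tnnt3 show groups without overlap, with 370.6 as the lowest knockout and 342.3 as the highest wild-type Tnni2 reading.

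Among the tropomyosins, Tpm3 differed most and Tpm2 least with the deposited scaling, while after quantile normalization and cyclic loess Tpm1 differed most and Tpm3 least. Tpm3, which encodes the slow-fibre alpha form, read 8265.5, 8603.8 and 7607.2 in the knockout and 6068.0, 7752.3 and 7098.2 in wild type. The lowest knockout array lay just under the highest wild-type array. The means were 8159 ± 507 in the knockout and 6973 ± 849 in wild type, a fold of 1.17 with an interval of 1.01 to 1.37 (unadjusted p = 0.0428; limma, adjusted p = 0.923). Tpm2, the beta tropomyosin of both fibre types, read 5157.7, 5539.8 and 5281.0 in the knockout and 4832.6, 5418.9 and 4916.0 in wild type. Its groups overlapped, and the fold was 1.05 with an interval of 0.934 to 1.19 (limma, adjusted p = 0.958). Tpm1, whose striated form is the alpha tropomyosin of fast fibres and heart and which smooth muscle and non-muscle cells also express, read 112.8, 95.3 and 105.2 in the knockout and 101.3, 90.8 and 98.0 in wild type. Its groups overlapped as well, with a fold of 1.08 and an interval of 0.865 to 1.34 (limma, adjusted p = 0.968). Array readings of different probe sets cannot be set against each other, so the low Tpm1 readings do not place its transcript below those of Tpm2 and Tpm3.

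In limma 0 of the 10 tested member probe sets passed at an adjusted p of 0.05, and so did 0.0% of all 6369 probe sets tested. At an unadjusted p under 0.05 there were 3, Tnnc2, Tnnt3 and Tpm3, against a background of 5.24% in either direction and 2.81% higher in the knockout. Higher in the knockout without overlap were 2 of the 10, against 5.45% of all tested probe sets, and 0 of the 10 were lower without overlap, against 5.23%. With the deposited scaling 9 of the 10 had a positive difference, against 46.8% of all tested. That background depends on brightness. Among the brightest 1274 of the tested probe sets, the top group of 5 by signal, 65.4% had a positive difference, with a median log2 difference of 0.05, and 11.9% were higher without overlap. Of the 9 members in that group, 8 had a positive difference and 2 were higher without overlap. Members share samples and fibres and do not count as independent cases. With 1 probe set per gene, the brightest, the median log2 difference was 0.17 for the slow troponins, 0.26 for the fast troponins and 0.11 for the tropomyosins, against -0.02 over all probe sets tested. The slow median was 0.07 without wild-type replicate 1, 0.08 without knockout replicate 2 and 0.29 without wild-type replicate 2, and the tropomyosin median was 0.17 without knockout replicate 2.

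The direction of some differences depended on the scaling. The authors' scaling gave each array the same trimmed mean, 100.07 to 100.08, while the highest value was 12012.7, 13353.4 and 12167.3 on the knockout arrays and 8779.2, 11894.4 and 10855.7 on the wild-type arrays. After quantile normalization, which gives all arrays the same distribution, the log2 difference turned to -0.03 for Tnnc1, -0.05 for Tnni1, -0.14 for the brighter Tnnt1 probe set and -0.13 for Tpm2. That of Tnnt3 shrank to 0.01 and that of Tpm3 to 0.03, and those of Tnni2 (0.27), Tnnc2 (0.16) and Tpm1 (0.14) remained positive. Cyclic loess gave 0.07 for Tnnt3, 0.06 for Tpm3, 0.12 for Tnnc2 and 0.01 for Tnni1. The dimmer Tnnt1 probe set was lower in the knockout under all 3 scalings, with -0.22 as deposited, -0.29 after quantile normalization and -0.32 after cyclic loess. It did not pass in any of them.

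**Figure D2:**
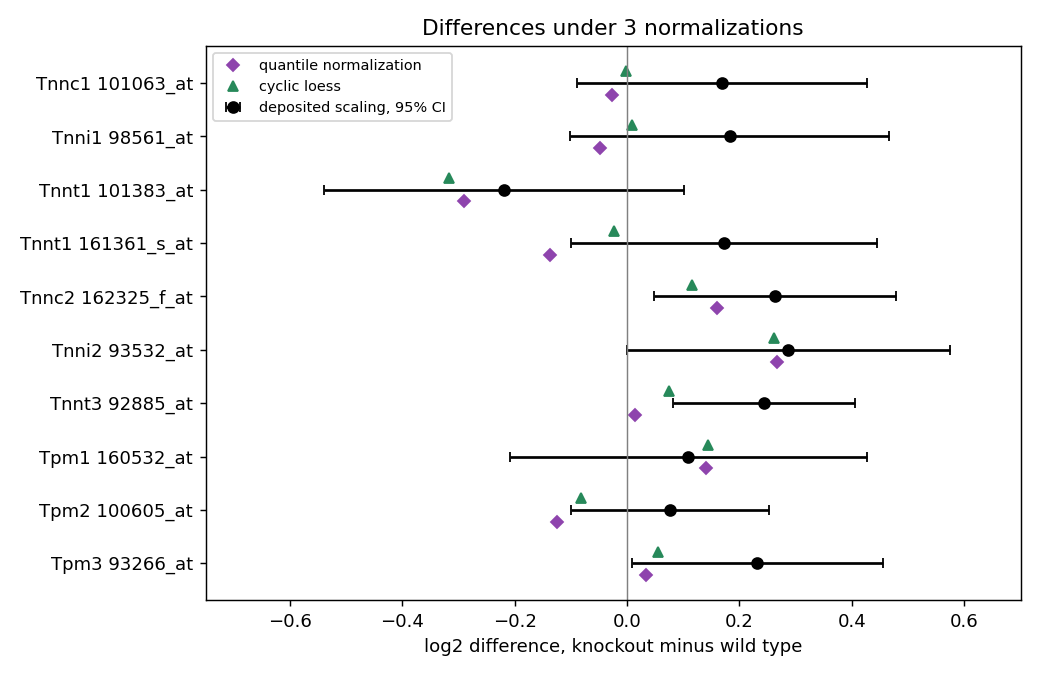
Log2 difference, knockout minus wild type, for the 10 tested probe sets. Black points with 95% intervals use the deposited scaling, purple diamonds quantile normalization and green triangles cyclic loess. Tnnc1, the brighter Tnnt1 probe set and Tpm2 lie left of 0 after both of the other normalizations and Tnni1 after quantile normalization only, while the 3 fast troponins, Tpm1 and Tpm3 stay right of 0.

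The arrays ordered the slow genes in nearly the same way. The second knockout array was highest and the first wild-type array lowest for Tnnc1, Tnni1 and the brighter Tnnt1 probe set, and also for Tpm3. Centred on the mean of the 6 arrays, Tnni1 stood at 0.08, 0.29 and -0.09 on the log2 scale in the knockout and -0.31, 0.12 and -0.09 in wild type. the brighter Tnnt1 probe set stood at 0.03, 0.27 and -0.04 in the knockout and -0.33, 0.10 and -0.03 in wild type. The root mean square difference from the mean of the other slow troponins was 0.05 for Tnnc1, 0.04 for Tnni1 and 0.04 for the brighter Tnnt1 probe set. It was 0.23 for the dimmer Tnnt1 probe set, and the median over the 4910 other genes tested, each against the mean of all 3, was 0.27. Tpm3 came close at 0.06, the slow myosin heavy chain Myh7 at 0.07 and the slow light chain Myl2 at 0.10. The other slow-fibre markers were farther, with Atp2a2 at 0.15, Myl3 at 0.15 and Csrp3 at 0.58, while Tpm2 stood at 0.12 and Tpm1 at 0.23. The fast troponins were less alike, at 0.13 for Tnnc2, 0.13 for Tnni2 and 0.12 for Tnnt3 from the mean of the other fast troponins. Other genes lay about as close to the mean of all 3: Myl3, Tpm3 and Tpm1 at 0.11, Tpm2 at 0.12 and skeletal actin Acta1 at 0.13. Farther were Myl2 at 0.14, Tnnc1 at 0.15, Tnni1 and the brighter Tnnt1 probe set at 0.17, Myh7 at 0.18 and Atp2a2 at 0.22. The dimmer Tnnt1 probe set stood at 0.31, and Pvalb, Csrp3, Actn3 and Myh4 at 0.57 to 1.94. Small distances favour genes that vary little, and all values come from the same 6 arrays.

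**Figure D3:**
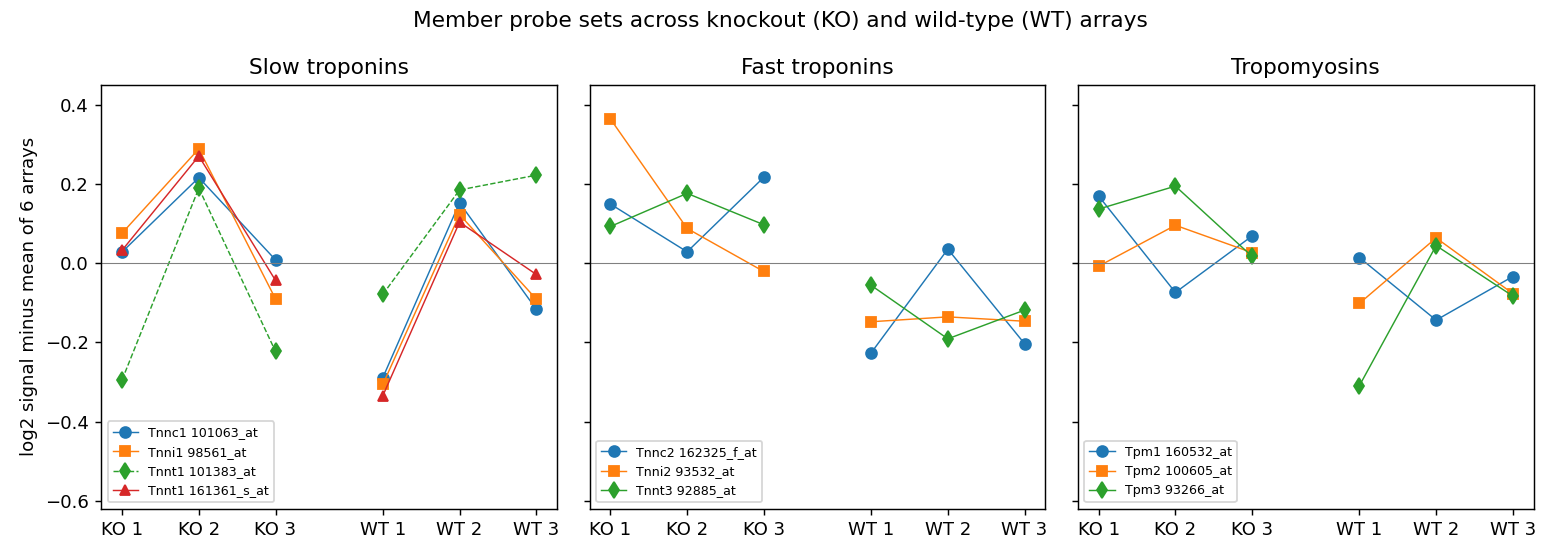
Log2 signal minus the mean of the 6 arrays, for the slow troponins, fast troponins and tropomyosins on the knockout (KO) and wild-type (WT) arrays; lines only join points of 1 probe set within a group. The solid slow troponin lines lie almost on top of each other and reach 0.29 on the second knockout array for Tnni1, and the dashed line of the dimmer Tnnt1 probe set departs from them.

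The second array of each group shares a beginning of its sample title that differs from that of the other 4, and what this beginning stands for is not given. Among the 4 arrays that share the other beginning, the log2 difference was 0.40 for Tnnc2, 0.32 for Tnni2, 0.18 for Tnnt3 and 0.27 for Tpm3. Between the remaining 2 arrays, 1 of each group, it was -0.01 for Tnnc2, 0.22 for Tnni2, 0.37 for Tnnt3 and 0.15 for Tpm3. The dimmer Tnnt1 probe set gave -0.33 among the 4 and 0.0045 between the 2. For the slow troponins the values were 0.22 and 0.06 for Tnnc1, 0.19 and 0.17 for Tnni1, and 0.18 and 0.17 for the brighter Tnnt1 probe set, with the 4 arrays given before the 2.

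Fast and slow paralogs of the same subunit were set against each other on each array, and these ratios overlapped between the groups. The log2 ratio of Tnnc2 over Tnnc1, relative to its wild-type mean, was 0.17, -0.14 and 0.26 in the knockout and 0.11, -0.07 and -0.04 in wild type. For Tnni2 over Tnni1 it was 0.34, -0.15 and 0.12 in the knockout and 0.21, -0.21 and 0.00 in wild type. For Tnnt3 over the brighter Tnnt1 probe set it was 0.10, -0.06 and 0.18 in the knockout and 0.31, -0.26 and -0.05 in wild type. In each pair the second array of the group was lowest in both groups. The mean shifts were 0.09, 0.10 and 0.07 for the C, I and T subunits, within the spread of single arrays, and leaving out knockout replicate 1 or wild-type replicate 2 turned the I or the T shift to -0.01 or -0.06. After quantile normalization the 3 shifts were 0.19, 0.31 and 0.15, and after cyclic loess 0.12, 0.25 and 0.10. Over the dimmer Tnnt1 probe set the Tnnt3 ratio stood at 0.62, 0.22 and 0.55 in the knockout and 0.25, -0.14 and -0.11 in wild type, a mean shift of 0.46 with groups that overlapped at the second knockout and first wild-type arrays.

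**Figure D4:**
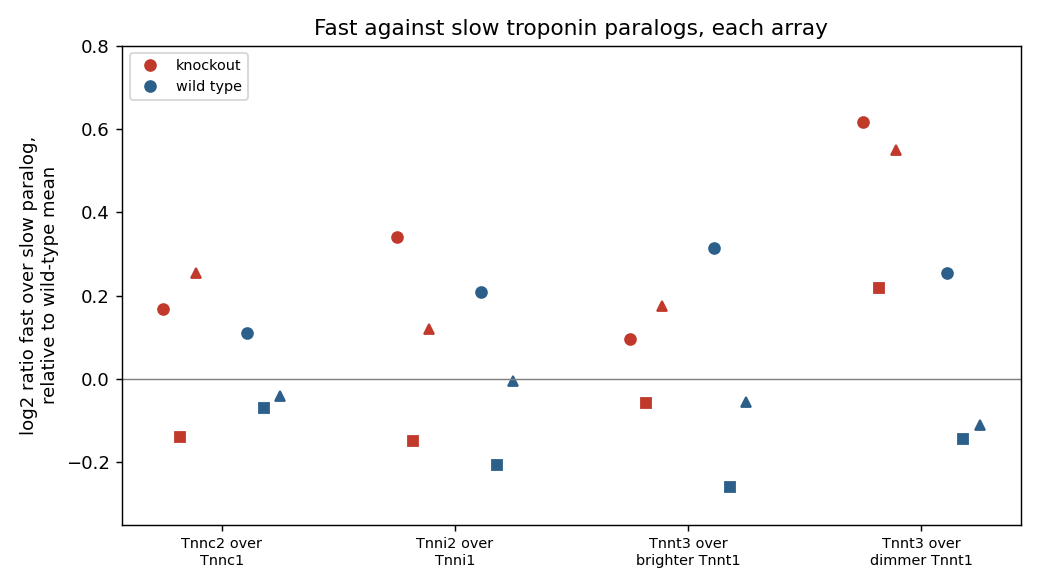
Log2 ratio of fast over slow troponin paralog on each array, relative to the wild-type mean, with knockout arrays (red) left of wild-type arrays (blue); circles, squares and triangles are replicates 1, 2 and 3. The groups overlap in all 4 columns, and the mean shift is 0.46 against the dimmer and 0.07 against the brighter Tnnt1 probe set.

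Markers of the muscle's fibre types were read beside the troponins. All 5 slow-fibre markers were above the filter on all 6 arrays, and the slow heavy chain Myh7, on a probe set with the suffix f, read 7935.5 to 9901.8 in the knockout and 7235.3 to 8935.5 in wild type. Of the 5, 4 had a positive difference and Atp2a2 a negative one (fold 0.966), and 0 passed. A positive difference was found for 46.8% of all tested probe sets and 65.4% of the brightest group. Myl3 was higher without overlap (fold 1.16, interval 1.02 to 1.32), against 5.45% of all tested probe sets and 11.9% of the brightest group. Csrp3 had a fold of 1.77 (interval 1.05 to 3.0), Myl2 of 1.16 and Myh7 of 1.05, with groups that overlapped. The type IIa heavy chain Myh2 read 2.2 to 15.1 in the knockout and 5.8 to 23.4 in wild type, so its probe set did not show the IIa fibres of soleus. The type IIb heavy chain Myh4 read 211.0, 790.7 and 73.8 in the knockout and 1610.0, 3670.9 and 499.4 in wild type. Within wild type alone Myh4 thus spanned 7.35-fold between its highest and lowest array, while Tnnc2 spanned 1.20-fold, Tnni2 1.01-fold and Tnnt3 1.10-fold there. Actn3, an actin cross-linker of fast fibres, read 256.8, 340.2 and 79.0 in the knockout and 519.4, 922.2 and 309.9 in wild type. For Myh4, Actn3 and Pvalb, listed together as markers of fast white muscle (type IIb fibres), the second array was highest and the third lowest in both groups. Each knockout array read below the wild-type array with the adjacent title number for these genes. What the title numbers stand for is not given. Myh4 and Actn3 had log2 differences of -2.64 ± 0.86 and -1.48 ± 0.53 (SE), opposite in sign to the fast troponins. Neither passed (limma, adjusted p = 0.923 each). Pvalb differed less, at -0.32 ± 0.34, a fold of 0.803 with an interval of 0.472 to 1.37 (limma, adjusted p = 0.96). Its interval included no change, and it spanned 2.41-fold within wild type. The part of type IIb fibres in the troponin readings was not tested. In a whole muscle, fewer fibres of a type and less RNA per fibre cannot be told apart.

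**Figure D5:**
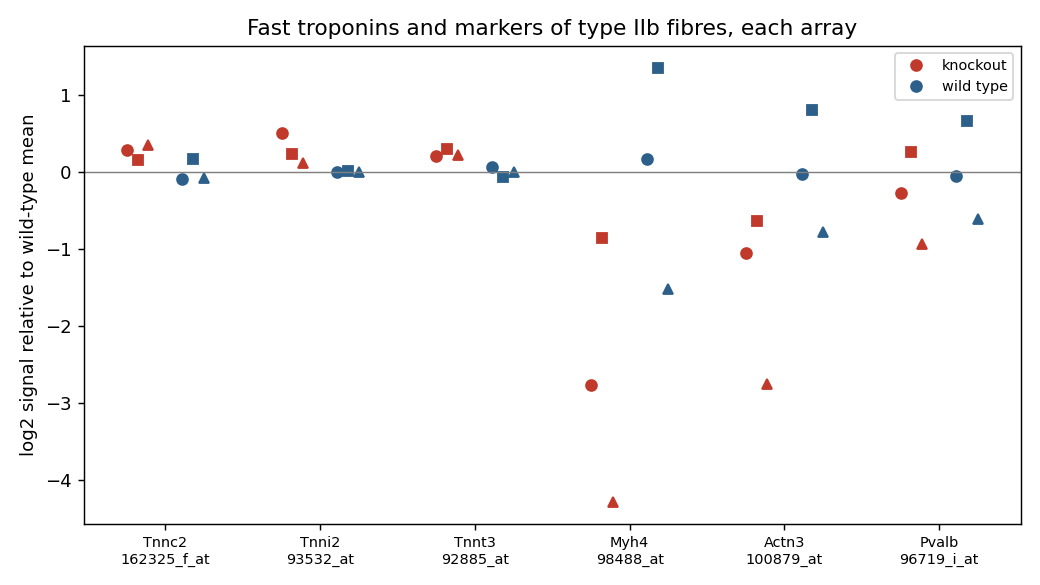
Log2 signal relative to the wild-type mean on each array for the 3 fast troponins and for Myh4, Actn3 and Pvalb. The last 3 were listed as markers of fast white muscle (type IIb fibres). Knockout arrays (red) are left of wild-type arrays (blue), and circles, squares and triangles are replicates 1, 2 and 3. The troponins stay within a narrow band, while Myh4 reads from 73.8 to 790.7 units in the knockout and 499.4 to 3670.9 in wild type.

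Other cells of a muscle sample express tropomyosins too. The smooth muscle markers, 5 of 6 of them above the filter, summed to 802.2 to 906.0 in the knockout and 752.0 to 825.6 in wild type, ranges that overlapped. Calponin, Cnn1, was below the filter on all 6 arrays. Fibroblast markers summed to 4347.1 to 4692.5 in the knockout and 4041.9 to 5166.0 in wild type, with all 5 above the filter. Markers of embryonic or regenerating fibres were mostly dim: Myh3, Myh8 and cardiac Tnnt2 failed the filter, while Actc1 and Myog passed it, and the 5 summed to 880.0 to 1106.6 in the knockout and 813.2 to 1043.0 in wild type. Actc1 dominated that sum, on a probe set with the suffix f, so the identity of most of this signal is uncertain. Myog, the differentiation factor myogenin, read 91.0, 103.6 and 49.6 in the knockout and 69.2, 22.2 and 24.8 in wild type, with groups that overlapped (fold 2.31, interval 1.15 to 4.64; limma, adjusted p = 0.923).

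The other cell types were read in the same way. Both fat cell markers found on the array, of 4 listed, had a negative difference and summed to 148.9 to 172.2 in the knockout and 187.3 to 325.9 in wild type. Only these sums did not overlap, while each gene alone did. Adipoq read 70.3, 120.1 and 75.8 in the knockout and 81.4, 231.8 and 222.1 in wild type. Fabp4 read 78.6, 36.2 and 96.4 in the knockout and 105.9, 94.1 and 76.8 in wild type. Adipoq, the hormone adiponectin, had a log2 difference of -0.90 ± 0.38 (SE; limma, adjusted p = 0.923). Endothelial markers, 4 of 4 above the filter, summed to 537.8 to 611.0 in the knockout and 596.5 to 633.8 in wild type. For macrophages, with 3 of 4 above the filter and Adgre1 below it on all 6 arrays, the sums were 301.2 to 358.2 in the knockout and 278.5 to 479.0 in wild type. Schwann cell markers, 2 of 4 on the array, summed to 248.8 to 307.5 in the knockout and 278.4 to 381.3 in wild type. The part of these cells in the member readings was not tested.

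The thin filament holds further proteins, and a list of 21 of their genes was read in the same fit. Probe sets with a single symbol covered 11 of the 21, and 9 were tested. Of these 6 had a positive and 3 a negative difference, 0 passed in either direction, and the median log2 difference was 0.12. Actc1 counted as negative at -0.02 on a probe set with the suffix f, while its second tested probe set gave 0.19. Over all probe sets tested 46.8% had a positive difference, or 65.4% in the brightest group, and 0.0% passed, so 6 of 9 is near the share of bright probe sets. Higher without overlap were 3 of the 9, against 5.45% of all and 11.9% of the brightest group. The 3 smallest p-values belonged to Pdlim1, Capzb and Acta1. Pdlim1, a PDZ and LIM protein that binds alpha-actinin, read 1563.0, 1631.3 and 1735.5 in the knockout and 1394.7, 1290.1 and 1319.1 in wild type, without overlap (fold 1.23, interval 1.07 to 1.42). Capzb, which caps the barbed end of actin at the Z-disc, read 696.1, 783.0 and 813.9 in the knockout and 550.4, 670.4 and 579.4 in wild type, also without overlap (fold 1.28, interval 1.06 to 1.53). Second tested probe sets did not show the same: the log2 difference was -0.17 for that of Pdlim1 and 0.05 for that of Capzb, against 0.30 and 0.35 for those above. Acta1, the skeletal actin on which troponin and tropomyosin sit, read 12012.7, 11326.6 and 12167.3 in the knockout and 8176.7, 11140.8 and 9998.9 in wild type. The second wild-type array came close to the lowest knockout array without reaching it, and the fold was 1.22 with an interval of 1.03 to 1.44. All 3 had an adjusted p of 0.923 in limma.

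The genes whose values lay closest to the mean fast troponin profile over the 6 arrays were Slc66a2, Zkscan3, Parl, Sidt2 and Pam16, with root mean square differences of 0.04 to 0.05 on the log2 scale. For the mean slow troponin profile they were Skap2, Sqstm1, Imp3, Wdr81 and Rbpj, at 0.04 to 0.06. The search covered 4910 other genes with 1 probe set each, and the median distance was 0.24 for the fast and 0.27 for the slow profile. With 6 arrays and this many genes, close matches of single genes are a description of these arrays.

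The samples as a whole put limits on these readings. The targeted gene Esr2 read 8.4, 3.9 and 6.2 in the knockout and 2.2, 3.2 and 1.3 in wild type, above the floor on 1 of 6 arrays, so the labels could not be checked from it. RNA integrity, read as the Gapdh control signal at the 3' end over that at the 5' end, lay between 0.958 and 1.043 in the knockout and 0.983 and 1.129 in wild type. The first wild-type array had the highest such ratio. It was lowest for 7 of the 10 member probe sets, but the share of all tested probe sets lowest there was not counted. Its highest value, 8779.2, was also below the highest value of every other array. That array also stood apart in red blood cell transcripts, with 4499.9 for the globin Hba-a1 against 1662.2 to 2277.4 on the other 5 arrays, and 166.7 for Alas2, the first enzyme of haem synthesis in red cells, against 42.0 to 76.4. The red blood cell markers, 2 of the 3 on the array, summed to 2087.2 to 2327.7 in the knockout and 1704.2 to 4666.6 in wild type. The part of RNA integrity or of blood in the member readings was not tested. Precision is limited by the number of arrays and also went with brightness. The log2 differences had a median SE of 0.12 for the members and 0.18 for all probe sets tested. That median was 0.28 in the dimmest and 0.12 in the brightest group of 5 by signal.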

How the data were processed

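Total RNA of soleus was measured on Affymetrix mouse arrays, 3 of Esr2 knockout and 3 of wild-type males per the labels. The values the authors deposited are linear signal intensities, already brought to a common level, by software not given in the sources used here. Of 12488 probe sets 66 controls were set aside, and the platform annotation gave 10833 of the others 1 gene symbol, 396 several and 1193 none. Values under the 20th percentile, 7.8, were set to it and log2 was taken. Probe sets above the median, 39.4, on at least 3 arrays were tested (6369), knockout minus wild type, two-sided, with limma 3.58.1 in R 4.3.3 (eBayes with an intensity trend, Benjamini-Hochberg over all tested). The fit was tried on simulated data with independent noise and changes larger than those of the members. That trial does not bear on differences of their size. Intervals are limma's. Every member probe set is named, with the 3 smallest p of the thin-filament list and the 5 genes closest to each troponin profile. Markers are given as lists, and Myh4, Actn3, Pvalb, Myh7, Myh2, Myl2, Myl3, Atp2a2, Csrp3, Myog, Adipoq, Fabp4, Adgre1, Cnn1, Hba-a1 and Alas2 were picked from them after their values were seen. Members and lists were chosen with earlier results of these data known. Alternatives were other normalizations, floors, filters, variance models, blocks and leaving out each array. Whether adjacent title numbers stand for pairs of samples is not given, and the main fit did not pair them. Over all tested probe sets, deviations of such pairs correlated at -0.005, 0.035 and -0.003. These values do not settle whether the samples were paired, and Myh4, Actn3 and Pvalb had the same order of arrays in both groups. Motifs were searched and figures drawn with Python 3.11.15 and matplotlib 3.10.9.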

Additional observations from a re-analysis of the deposited data

How the results depend on the processing

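Across 19 alternatives 0 member probe sets passed the adjusted threshold in limma, and Tnnc2, Tnni2, Tnnt3, Tpm1, Tpm3 and the dimmer Tnnt1 probe set kept the sign of their difference. After quantile normalization the log2 difference was -0.0275 for Tnnc1, -0.049 for Tnni1, -0.14 for the brighter Tnnt1 probe set and -0.13 for Tpm2, and after cyclic loess -0.0014 for Tnnc1, -0.0233 for the brighter Tnnt1 probe set and -0.0811 for Tpm2; the cause was not tested. The slow troponin median became -0.049 and the tropomyosin median 0.0333 after quantile normalization. The fast troponin median was 0.16 after quantile normalization, 0.12 after cyclic loess, 0.33 with arrays scaled to a common median and 0.32 over the 4 arrays that share a title beginning. When single arrays were left out, that median ran from 0.25 to 0.31, the slow median from 0.07 (without wild-type replicate 1) to 0.29 (without wild-type replicate 2) and the tropomyosin median from 0.10 to 0.17 (without knockout replicate 2). In the same fits the shift of Tnnt3 over Tnnt1 ran from -0.06 (without wild-type replicate 2) to 0.23 (without wild-type replicate 1), that of Tnni2 over Tnni1 from -0.01 (without knockout replicate 1) to 0.23 (without knockout replicate 2) and that of Tnnc2 over Tnnc1 from 0.01 (without knockout replicate 3) to 0.21 (without knockout replicate 2). After quantile normalization these shifts were 0.15, 0.31 and 0.19, and after cyclic loess 0.10, 0.25 and 0.12. With the dimmer Tnnt1 probe set, chosen after seeing the data, the Tnnt3 shift was 0.46. With adjacent title numbers, whose meaning is not given, as a replicate block in limma, 0 members passed. The adjusted p of Tnnt3 in that limma fit was 0.864 (0.498 to 0.999 over all alternatives tried for it). Of the thin-filament genes outside the members 0 passed under each alternative, and 6 to 7 had a positive difference. Precision is limited by 3 arrays a group and by readings near the floor, where 3 member probe sets lay.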

Other observations

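Troponin I and T genes lie close to each other in pairs in the mouse genome. On the RefSeq annotation, Tnni2 and Tnnt3 have 1 coding gene, Lsp1, between them, Tnni1 and cardiac Tnnt2 have Lad1 between them, and cardiac Tnni3 and Tnnt1 have 0. Lsp1, an actin-binding protein of white blood cells, read 122.5, 118.3 and 109.7 in the knockout and 113.0, 94.9 and 120.3 in wild type, with groups that overlapped (fold 1.07, interval 0.854 to 1.35). Its neighbours Tnni2 and Tnnt3 were both higher in the knockout without overlap with the deposited scaling. So were 5.45% of all tested probe sets and 11.9% of the brightest group. After quantile normalization the log2 difference was 0.27 for Tnni2 and 0.01 for Tnnt3. The folds of Tnni2 and Tnnt3 with the deposited scaling, 1.22 and 1.18, lie within the Lsp1 interval. A difference between Lsp1 and its neighbours is thus not shown. Tnni3 read 10.6, 10.6 and 15.1 in the knockout and 22.2, 40.1 and 17.4 in wild type, without overlap but above the filter on 1 array only, so it was not tested. Tnnt2 read 18.3 to 24.0 in the knockout and 22.1 to 24.0 in wild type.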
